A study of Mus musculus with 8 samples.

Results

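The genes followed here, in RNA of sorted CD8 T cells, are 6 genes best known from basophils and mast cells: the granule protease genes Mcpt8 and Cpa3, the IgE receptor chains Fcer1a and Ms4a2, the growth factor receptor Kit and the basophil receptor Cd200r3. They were chosen by gene symbol, from the difference between the groups seen in earlier results of the same libraries, and all 6 symbols of the rule have a row among the 13204 genes of the table. Their levels in the 2 groups are therefore described without a test. FcgRIIB+ cells (4 libraries) and FcgRIIB- cells (4 libraries) were sorted from the same 4 pools of 3 spleens each. All were CD44hi Thy1.1+ CD8+ cells of the OT-I background, T cells that recognise an ovalbumin peptide; FcgRIIB is an inhibitory receptor that binds IgG. The mice had received 1000000 OT-I cells 24 hours before they were grafted with ovalbumin-expressing skin, and were studied on day 14; age and host strain are not given in the labels. Each library was made from 1000 sorted cells, and libraries with the same replicate number come from the same pool.

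Basophils and mast cells store proteases and histamine in granules and bind IgE through the receptor FcεRI. That receptor is built from an alpha chain that binds IgE (Fcer1a), a beta chain that amplifies the signal (Ms4a2) and gamma chains shared with other Fc receptors (Fcer1g). Mouse basophils circulate, also through the spleen, express Mcpt8 and Cd200r3 and carry little Kit, whereas mature mast cells sit in tissues and depend on Kit. Kit also marks blood progenitors.

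Promoter sequence is shown for 4 of the 6 genes, because their levels followed different patterns over the libraries. Mcpt8 and Cpa3 were highest in FcgRIIB+ replicates 3 and 4, and Kit in FcgRIIB+ replicates 1 and 2. Fcer1a was highest in FcgRIIB+ replicate 3, with replicate 4 below replicate 2. Each sequence is the 250 bases before the transcription start from RefSeq, mouse build GRCm38.p6, written 5′ to 3′ on the strand of the gene. All 6 genes matched the promoter table; for Kit, which has 2 starts listed, one of them was used. Capitals mark a GATA motif, searched on both strands as AGATAA or as AGATAG, and as the same letters with T in the leading position. GATA factors are transcription factors needed by basophils and mast cells. The windows are chr14:56085198-56085447 (minus strand) for Mcpt8, chr3:20242182-20242431 (minus strand) for Cpa3, chr1:173227230-173227479 (minus strand) for Fcer1a and chr5:75574737-75574986 (plus strand) for Kit.
Mcpt8: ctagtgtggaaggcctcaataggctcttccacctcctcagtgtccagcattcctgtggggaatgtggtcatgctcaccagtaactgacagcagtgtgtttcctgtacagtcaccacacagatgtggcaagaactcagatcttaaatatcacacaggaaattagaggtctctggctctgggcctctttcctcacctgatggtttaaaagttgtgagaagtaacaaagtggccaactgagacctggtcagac
Cpa3: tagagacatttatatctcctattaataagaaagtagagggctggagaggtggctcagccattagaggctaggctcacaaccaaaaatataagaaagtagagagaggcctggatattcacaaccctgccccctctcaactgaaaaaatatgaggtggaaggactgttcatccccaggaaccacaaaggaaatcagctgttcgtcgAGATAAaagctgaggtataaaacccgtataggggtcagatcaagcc
Fcer1a: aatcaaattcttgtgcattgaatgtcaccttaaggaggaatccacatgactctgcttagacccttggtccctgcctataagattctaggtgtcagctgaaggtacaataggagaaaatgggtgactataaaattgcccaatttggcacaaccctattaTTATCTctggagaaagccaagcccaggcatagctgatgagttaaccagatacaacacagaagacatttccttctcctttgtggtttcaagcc
Kit: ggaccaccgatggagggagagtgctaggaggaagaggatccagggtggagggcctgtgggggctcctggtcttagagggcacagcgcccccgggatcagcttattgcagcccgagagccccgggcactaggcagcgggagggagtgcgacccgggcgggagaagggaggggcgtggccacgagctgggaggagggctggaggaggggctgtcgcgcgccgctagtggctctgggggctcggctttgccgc
The Cpa3 window held 1 match, which begins 46 bases before the start, and the Fcer1a window 1 match on the opposite strand, which begins 92 bases before it. The windows of Ms4a2 and Cd200r3, not printed, held 3 matches each. Those of Mcpt8 and Kit held none of these spellings. Of 27025 promoter windows of the same length, 27.1% held at least 1 match. A match is a run of letters only, and a window without one says nothing about the factor.

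Depth, recovered from the values, was 5310000 to 22010000 reads in FcgRIIB+ libraries and 3060000 to 17960000 reads in FcgRIIB- libraries, and replicates 1 and 2 were the deeper ones in both groups. Low values ran higher in FcgRIIB- replicate 4, the shallowest library: the first quartile of all genes was 4.27 RPKM there, 1.09 to 1.62 RPKM in the other FcgRIIB- libraries, and 1.68 to 2.68 RPKM in FcgRIIB+ libraries. The T cell marker Cd3e was read in every library, at 191 to 373 RPKM in FcgRIIB+ and 430.4 to 688 RPKM in FcgRIIB- libraries. In bulk libraries fewer cells of a type and less RNA per cell cannot be told apart.

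Mcpt8 (Entrez 17231) encodes mast cell protease 8, a granule serine protease that marks mouse basophils. It was at 16.9, 64, 587 and 547 RPKM in FcgRIIB+ replicates 1 to 4, and at 0.052, 4.07, 0 and 7.01 RPKM in FcgRIIB- replicates 1 to 4. Every FcgRIIB+ library was above every FcgRIIB- library, and among FcgRIIB+ libraries replicates 3 and 4 were far above replicates 1 and 2. These levels rest on 299, 1511, about 4097 and about 3118 reads in FcgRIIB+ libraries and 1, 74, 0 and 23 reads in FcgRIIB- libraries. The count of 0 in FcgRIIB- replicate 3 allows up to 0.38 RPKM (3 reads, counting error only). By level, Mcpt8 ranked 230 and 246 from the top of 13204 genes in FcgRIIB+ replicates 3 and 4, and 4103 and 1283 in FcgRIIB+ replicates 1 and 2. Its highest rank among FcgRIIB- libraries was 6689, in replicate 4. On the log2(RPKM + 1) scale, which understates the change of low genes, the fold change was 5.77 (SE 1.06), or 54.4-fold. Pairs 1 to 4 gave 4.09, 3.68, 9.2 and 6.1. It was 3.89 (SE 0.63) from replicates 1 and 2 and 7.65 (SE 0.75) from replicates 3 and 4.

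Cpa3 (Entrez 12873) encodes carboxypeptidase A3, a granule enzyme of mast cells and basophils. It was at 8.52, 10.0, 50.4 and 29.4 RPKM in FcgRIIB+ replicates 1 to 4, and at 1.8, 5.07, 3.93 and 7.88 RPKM in FcgRIIB- replicates 1 to 4. The groups did not overlap, though the lowest FcgRIIB+ value lay close above the highest FcgRIIB- value. As for Mcpt8, FcgRIIB+ replicates 3 and 4 stood above FcgRIIB+ replicates 1 and 2. The fold change was 1.95 (SE 0.54) on the log2(RPKM + 1) scale, and 1.77, 0.86, 3.38 and 1.78 in pairs 1 to 4. Unlike Mcpt8, Cpa3 had reads in every FcgRIIB- library (47, 125, 42 and 35 in replicates 1 to 4).

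Fcer1a (Entrez 14125), the IgE-binding chain, was at 7.83, 21.9, 56.9 and 19.4 RPKM in FcgRIIB+ replicates 1 to 4, and at 0, 1.85, 0.657 and 2.37 RPKM in FcgRIIB- replicates 1 to 4. Every FcgRIIB+ library was above every FcgRIIB- library, and FcgRIIB+ replicate 3 was the highest. FcgRIIB+ libraries held 160, 597, 460 and 128 reads and FcgRIIB- libraries 0, 39, 6 and 9 reads. The count of 0 in FcgRIIB- replicate 1 allows up to 0.135 RPKM. The fold change was 3.47 (SE 0.54) on the log2(RPKM + 1) scale, or 11.1-fold, and 3.14, 3.0, 5.13 and 2.6 in pairs 1 to 4, a narrower range than for Mcpt8.

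Ms4a2 (Entrez 14126), the beta chain, had the smallest difference of the 6. It was at 4.82, 10.7, 6.61 and 4.4 RPKM in FcgRIIB+ replicates 1 to 4, and at 0.833, 1.93, 2.16 and 6.12 RPKM in FcgRIIB- replicates 1 to 4. The groups overlapped through FcgRIIB- replicate 4, which lay above FcgRIIB+ replicates 1 and 4 on 20 reads, in the library where low values ran higher in general. The fold change was 1.14 (SE 0.43) on the log2(RPKM + 1) scale, and 1.67, 2.0, 1.27 and -0.4 in pairs 1 to 4. Without FcgRIIB- replicate 4 it was 1.5. Per length, the level of Fcer1a was 1.62, 2.03, 8.62 and 4.41 times that of Ms4a2 in FcgRIIB+ replicates 1 to 4, and 0, 0.961, 0.304 and 0.388 times in FcgRIIB- replicates 1 to 4. Of the 50-base words of the annotated Ms4a2 transcript 2.69% also occur in Ms4a4b, so some reads could have been shared with that gene. Fcer1g, the gamma chain and not among the 6, was at 328, 346, 1144 and 1809.9 RPKM in FcgRIIB+ and at 26.6, 167, 66.9 and 180.5 RPKM in FcgRIIB- replicates 1 to 4, which made it the most abundant chain of the receptor in every library.

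Kit (Entrez 16590), the receptor tyrosine kinase for stem cell factor, ran the other way over the replicates. It was at 28.1, 49.3, 5.08 and 4.77 RPKM in FcgRIIB+ replicates 1 to 4, and at 0.776, 0.476, 0.736 and 3.47 RPKM in FcgRIIB- replicates 1 to 4. Every FcgRIIB+ library was above every FcgRIIB- library, but here FcgRIIB+ replicates 1 and 2 were the high ones. In FcgRIIB- replicate 4 the level rests on 96 reads, and 15.1% of the genes of that library lay below it. The fold change was 2.83 (SE 0.67) on the log2(RPKM + 1) scale, and 4.03, 5.09, 1.81 and 0.37 in pairs 1 to 4. From replicates 1 and 2 it was 4.56 (SE 0.46), and from replicates 3 and 4 it was 1.09 (SE 0.53).

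Cd200r3 (Entrez 74603), an activating member of the CD200 receptor family found on mouse basophils and mast cells, was the lowest of the 6 in each FcgRIIB+ library. It was at 1.81, 6.27, 3.1 and 4.07 RPKM in FcgRIIB+ replicates 1 to 4, and at 0.041, 0.292, 0.075 and 1.92 RPKM in FcgRIIB- replicates 1 to 4. The groups overlapped by a small margin, FcgRIIB- replicate 4 lying above FcgRIIB+ replicate 1. FcgRIIB+ libraries held 163, 753, 110 and 118 reads and FcgRIIB- libraries 4, 27, 3 and 32 reads. The fold change was 1.66 (SE 0.45) on the log2(RPKM + 1) scale, and 1.43, 2.49, 1.93 and 0.8 in pairs 1 to 4. With a pseudocount of 0.1 in place of 1 it was 3.26. Of the 50-base words of its annotated transcript 4.23% also occur in other genes.

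**Figure D1:**
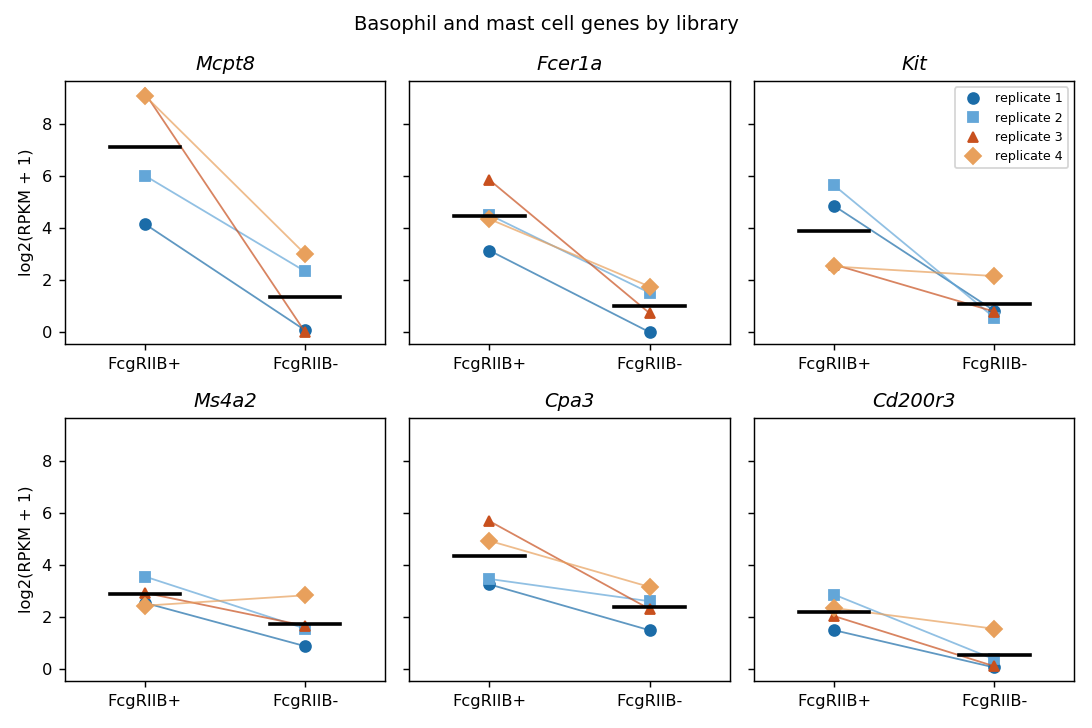
Level of each gene as log2(RPKM + 1) (vertical axis) in FcgRIIB+ (left) and FcgRIIB- (right) libraries; points are libraries, lines join libraries from the same pool of spleens, and black bars are group means. Replicates 3 and 4 are the high FcgRIIB+ points for Mcpt8 and Cpa3 and the low ones for Kit, and the line of pair 4 is nearly flat for Kit (0.37) and slopes the other way for Ms4a2 (-0.4).

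Every FcgRIIB+ library was above every FcgRIIB- library for 4 of the 6 genes, as for 4.61% of the 11946 genes tested. In all 4 pairs 5 of the 6 were higher, as were 10.3% of the genes tested. Limma with an adjusted p under 0.05 called 3 of the 6 higher (Mcpt8, Fcer1a and Kit), as it did 3.03% of the genes tested, and it called 0.268% lower. With the replicate number as a block 6 of the 6 were called higher, beside 7.22% of the genes tested, and 3.85% were called lower. The genes were chosen with this comparison known, and a gene near 0 in FcgRIIB- libraries is in the table only where it was read in the FcgRIIB+ ones, so nothing is read from these counts.

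RPKM is per length, so the 6 levels were set beside each other within a library. A bias linked to length that differs between libraries would remain in such shares and ratios. They summed to 68, 162, 709 and 609 RPKM in FcgRIIB+ replicates 1 to 4 and to 3.5, 13.7, 7.55 and 28.8 RPKM in FcgRIIB- replicates 1 to 4. Mcpt8 made up 24.9, 39.5, 82.8 and 89.8% of that sum in FcgRIIB+ replicates 1 to 4, and Kit 41.3, 30.4, 0.717 and 0.782%. The ratio of Mcpt8 to Kit was thus 0.602, 1.3, 115 and 115 in FcgRIIB+ replicates 1 to 4. The change in shares between FcgRIIB+ replicates 1 and 2 and replicates 3 and 4, all of 1 gate, ran along with depth. Depth was 16470000 and 22010000 reads in replicates 1 and 2 and 6510000 and 5310000 reads in replicates 3 and 4. Exon length differed too, at 1073 bases for Mcpt8, 1453 for Cpa3 and 9043 for Kit. It was 1241 bases for Fcer1a, 1070 for Ms4a2 and 5457 for Cd200r3. The levels of these did not separate FcgRIIB+ replicates 1 and 2 from replicates 3 and 4. The part of depth and of length was not tested. In FcgRIIB- libraries Cpa3 was the largest share, at 51.4, 37.1, 52 and 27.4% in replicates 1 to 4.

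**Figure D2:**
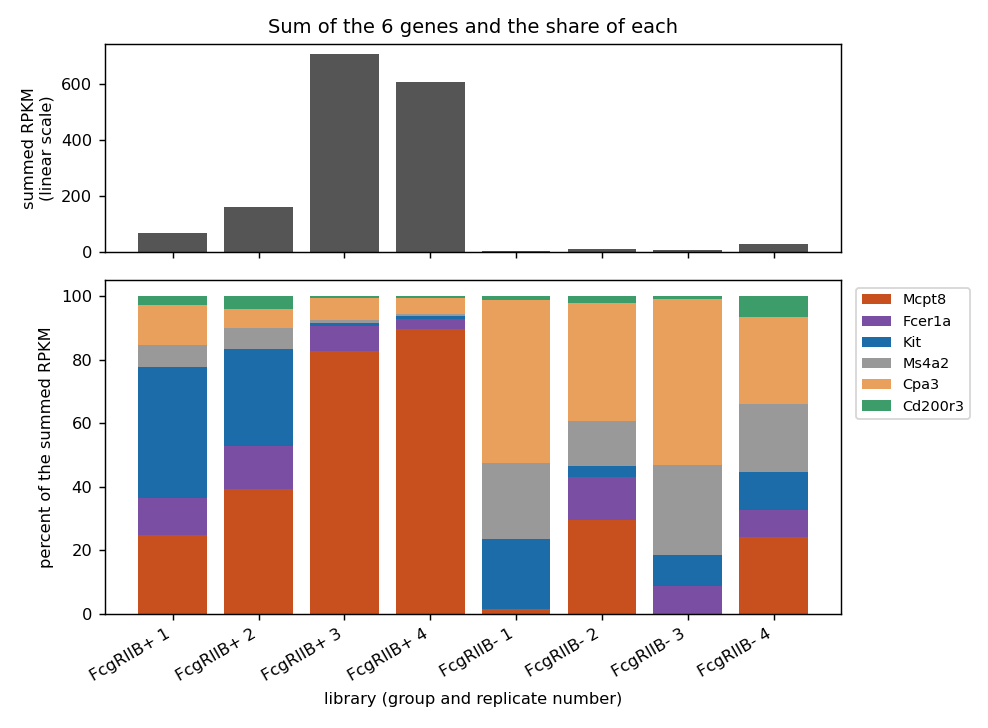
Sum of the RPKM of the 6 genes (upper bars, linear axis from 0) and the percent of that sum from each gene (lower stacked bars) in FcgRIIB+ replicates 1 to 4, then FcgRIIB- replicates 1 to 4. Mcpt8 fills 82.8% and 89.8% of the bars of FcgRIIB+ replicates 3 and 4, and Kit 41.3% and 30.4% of those of FcgRIIB+ replicates 1 and 2.

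Likeness of pattern was measured as Pearson r of log2(RPKM + 1) over the 8 libraries, which share 4 pools, differ in depth and carry the group difference itself, so it is a description with no test. Mcpt8 was most like Fcer1a and Cpa3 among the 6 (0.96 and 0.96), and Ms4a2 most like Cd200r3 (0.92). Kit had 0.51 with Mcpt8 and 0.38 with Cpa3. For deviations from the group means, which take out the group difference, Mcpt8 had 0.92 with Cpa3, 0.83 with Fcer1a and -0.54 with Kit. Many other genes were as near. By likeness to Mcpt8 among all genes tested, Cpa3 and Fcer1a ranked 15 and 17 over the 8 libraries and 159 and 610 by deviations. By likeness to Ms4a2, Cd200r3 ranked 119 over the 8 libraries.

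Among all genes tested those most like Mcpt8 were Tnni2, Batf3, S100a1, Aif1 and Tmem205 (0.976 to 0.982). Batf3, a transcription factor of cross-presenting dendritic cells, was at 22.9, 38.2, 110.4 and 143 RPKM in FcgRIIB+ and at 1.5, 2.85, 1 and 10.7 RPKM in FcgRIIB- replicates 1 to 4. Aif1, a calcium-binding protein of myeloid cells, was at 164, 177, 912 and 1314 RPKM in FcgRIIB+ and at 4.99, 29.1, 14.1 and 66 RPKM in FcgRIIB- replicates 1 to 4. Like Mcpt8, Batf3 and Aif1 were highest in FcgRIIB+ replicates 3 and 4. Cpa3 was most like Tmem205, S100a1, Guca1a, Gngt2 and Mt1 (0.965 to 0.978), and Fcer1a most like Clec1b, Spp1, Kctd12, Erp29 and Dpep2 (0.962 to 0.976). For deviations from the group means the nearest genes were Impa2, Crls1, Gna12, Clasrp and Bloc1s3 for Mcpt8, Cdkn2c, Lcmt2, Gfi1 and Hist1h2an for Cpa3 and Sap30, Zfp296, Taf10, BC049715 and 1110008F13Rik for Fcer1a. These are the nearest of 11946 genes compared on 8 points.

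The genes most like Kit were Mospd2, Zfp366, Lrrk2, Mctp1 and Itgae (0.985 to 0.995). Zfp366, a transcriptional regulator known from dendritic cells, was at 34.8, 61.3, 4.46 and 7.44 RPKM in FcgRIIB+ and at 0.666, 0.684, 0.443 and 2.37 RPKM in FcgRIIB- replicates 1 to 4. Itgae, the integrin chain CD103 of some dendritic cells and T cells, was at 27, 40.8, 11.3 and 11.6 RPKM in FcgRIIB+ and at 4.15, 2.11, 3.9 and 8.1 RPKM in FcgRIIB- replicates 1 to 4. Both were highest in FcgRIIB+ replicates 1 and 2, as Kit was. For deviations from the group means the nearest were Mospd2, Cpeb4, Myo9a, Hap1 and Lrrk2. Ms4a2 was most like Slc12a2, Arrdc4, Aldh1a2, Gpr31b and Nacc2, and by deviations Pdia5, Xkrx, Ttc39a, Nacc2 and Arrdc4. Cd200r3 was most like 5031439G07Rik, Hpse, Cd2ap, Htr7 and Fam149a, and by deviations 5031439G07Rik, Mmp12, Zdhhc14, Hpse and B630005N14Rik.

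Relatives of Kit and Mcpt8 were set beside them. Flt3, a receptor kinase of dendritic cells and their precursors, was at 68.3, 154, 50.7 and 54.8 RPKM in FcgRIIB+ and at 1.54, 3.19, 1.19 and 8.14 RPKM in FcgRIIB- replicates 1 to 4 (log2 fold change 4.29, limma adjusted p = 0.000679; called in all 8 fits without 1 library). Csf1r, the receptor kinase of macrophages, was at 153, 166, 19.3 and 27.7 RPKM in FcgRIIB+ and at 8.32, 17.3, 2.13 and 6.3 RPKM in FcgRIIB- replicates 1 to 4 (log2 fold change 2.98, limma adjusted p = 0.0473; not called without FcgRIIB+ replicate 1 or 2 or FcgRIIB- replicate 1, 3 or 4, adjusted p up to 0.184). Csf1r was highest in FcgRIIB+ replicates 1 and 2, as Kit was, and Flt3 in FcgRIIB+ replicate 2. Pdgfra and Pdgfrb, kinases of the same class known from stromal cells, reached at most 1.17 and 2.16 RPKM in FcgRIIB+ and 3.9 and 4.49 RPKM in FcgRIIB- libraries, and were not tested. Among granzymes, serine proteases related to Mcpt8, Gzma, Gzmb, Gzmk and Gzmm had log2 fold changes of 0.16, -0.14, -0.4 and -0.44. Limma called 0 of these 4, with 0 at an unadjusted p under 0.05 and 0 with the block. Over all genes tested 3.03% were called higher and 0.268% lower, and 7.22% and 3.85% with the block. Gzmb, the cytotoxic protease granzyme B, was at 498, 171, 321 and 116 RPKM in FcgRIIB+ and at 468, 204, 427 and 116 RPKM in FcgRIIB- replicates 1 to 4, and the groups overlapped.

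**Figure D3:**
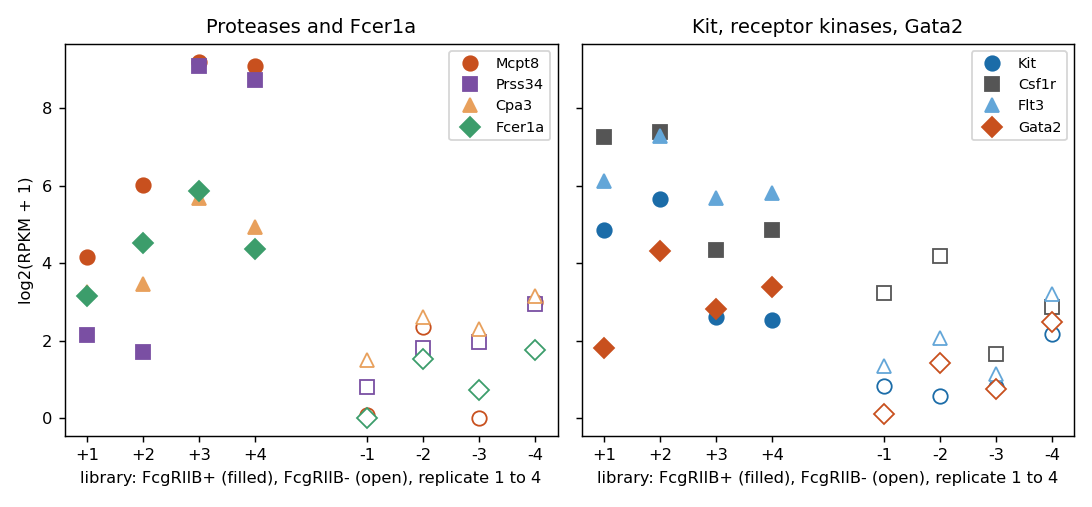
Levels as log2(RPKM + 1) (vertical axis) of Mcpt8, Prss34, Cpa3 and Fcer1a (left) and of Kit, Csf1r, Flt3 and Gata2 (right) in FcgRIIB+ replicates 1 to 4 (filled, left side of each panel) and FcgRIIB- replicates 1 to 4 (open, right side). Mcpt8 and Prss34 are highest in FcgRIIB+ replicates 3 and 4, at 425 RPKM or more, and Kit and Csf1r in FcgRIIB+ replicates 1 and 2.

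Other genes of basophil and mast cell function were called in part. Of 87 such genes listed besides the 6, 70 have a row and 68 were tested, and the others were not analysed here. Limma called 12 of the 68 higher and 0 lower, beside 3.03% and 0.268% of all genes tested. At an unadjusted p under 0.05 it was 23 higher and 2 lower, beside 7.48% and 4.67% of all genes tested. With the block it was 24 and 2, beside 7.22% and 3.85%. The median log2 fold change was 0.45, against -0.11 over all genes tested, and 46 of the 68 were above 0, as were 38.8% of all genes tested. In 15 of the 68 every FcgRIIB+ library was above every FcgRIIB- library, as in 4.61% of all genes tested. The list was written with earlier results of these libraries known.

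Mediators and the enzymes that make them had 6 of 15 called higher, beside 3.03% of all genes tested. All 15 were above 0 (median 1.67), where 38.8% of all genes tested were. Alox5ap, which helps 5-lipoxygenase make leukotrienes, was at 217 ± 68.7 RPKM in FcgRIIB+ and 16.1 ± 14.1 RPKM in FcgRIIB- libraries (SD, n = 4 each; log2 fold change 4.04, limma adjusted p = 0.00242). Hpgds, the haematopoietic prostaglandin D synthase, averaged 7.82 ± 0.724 RPKM in FcgRIIB+ and 1.4 ± 1 RPKM in FcgRIIB- libraries (1.97, limma adjusted p = 0.00748). The chemokine gene Ccl3 averaged 221 RPKM in FcgRIIB+ and 22.7 RPKM in FcgRIIB- libraries (2.93, limma adjusted p = 0.00954). These 3 stayed called in all 8 fits that left out 1 library, which had no block. The cytokine gene Osm averaged 64.2 RPKM in FcgRIIB+ and 8.66 RPKM in FcgRIIB- libraries (2.7, limma adjusted p = 0.0165), a call that ended without FcgRIIB- replicate 3 (adjusted p = 0.0814). Hdc, which makes histamine, was at 17.3, 68.6, 24.7 and 22 RPKM in FcgRIIB+ replicates 1 to 4, and at 5.04, 11.7, 6.85 and 6.74 RPKM in FcgRIIB- replicates 1 to 4. The groups did not overlap, and FcgRIIB+ replicate 2 was the highest, not the libraries richest in Mcpt8. Hdc had a log2 fold change of 1.83 with limma adjusted p = 0.038, and was not called without FcgRIIB+ replicate 2 or FcgRIIB- replicate 1, 3 or 4 (adjusted p up to 0.135). Cyp11a1, a steroid-making enzyme, had 2.72 with limma adjusted p = 0.0316, and was not called without FcgRIIB+ replicate 2 or FcgRIIB- replicate 1, 2 or 3 (adjusted p up to 0.13).

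Of the other granule proteases listed, Prss34, a basophil protease of the mouse, has a row. It was at 3.4, 2.24, 546 and 425 RPKM in FcgRIIB+ replicates 1 to 4, and at 0.733, 2.52, 2.9 and 6.73 RPKM in FcgRIIB- replicates 1 to 4. Its level was close to that of Mcpt8 in FcgRIIB+ replicates 3 and 4, and FcgRIIB+ replicates 1 and 2 lay within the FcgRIIB- range. With that spread the log2 fold change of 3.54 (SE 1.49) did not pass in limma (adjusted p = 0.348, and 0.00109 with the block).

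IgE receptor signalling was mixed. Limma called 2 of 21 genes higher and 0 lower, beside 3.03% and 0.268% of all genes tested. At an unadjusted p under 0.05 it was 6 and 2, beside 7.48% and 4.67%. The median was 0.05, against -0.11 over all genes tested. The kinase gene Lyn had a log2 fold change of 2.86 (limma adjusted p = 0.0156, and 0.0738 without FcgRIIB- replicate 3). The phospholipase gene Plcg2 had 1.98 (limma adjusted p = 0.0324) and was not called without FcgRIIB+ replicate 1 or 2 or FcgRIIB- replicate 1, 2 or 3 (up to 0.142). With the block 8 genes were called higher, and Fyn and Lat lower (-1.06 and -1.32), beside 7.22% and 3.85% of all genes tested. Lat, an adaptor of the T cell receptor that also serves the IgE receptor, was at 338, 186, 353 and 233 RPKM in FcgRIIB+ and at 556, 759.5, 905 and 524 RPKM in FcgRIIB- replicates 1 to 4. Fcer1g, the gamma chain, had a log2 fold change of 3.0 (SE 0.72, limma adjusted p = 0.0433). Its call ended without FcgRIIB+ replicate 3 or 4 or FcgRIIB- replicate 1, 2 or 3 (adjusted p up to 0.156).

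Of 13 tested genes of Kit signalling other than Kit, limma called 0, with 1 at an unadjusted p under 0.05, and the block called 1, the adaptor gene Gab2 (1.42). Over all genes tested the shares higher were 3.03%, 7.48% unadjusted and 7.22% with the block. The most abundant, the adaptor genes Shc1 and Grb2, averaged 33.6 and 32.1 RPKM in FcgRIIB+ and 25.3 and 27.9 RPKM in FcgRIIB- libraries. Kitl, the gene of stem cell factor, was at 0.637 to 0.746 RPKM in FcgRIIB+ and 0.225 to 1.63 RPKM in FcgRIIB- libraries and was too low to be tested.

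Limma called 2 of 9 cytokine, lipid and histamine receptors higher, and 2 with the block, beside 3.03% and 7.22% of all genes tested. Csf2rb, the signalling chain shared by the receptors for IL-3, IL-5 and GM-CSF, averaged 31.5 RPKM in FcgRIIB+ and 2.9 RPKM in FcgRIIB- libraries (2.88, limma adjusted p = 0.0103, and 0.0544 without FcgRIIB- replicate 3). Its mouse IL-3-specific copy Csf2rb2, which could share reads with it, averaged 8.89 RPKM in FcgRIIB+ and 1.84 RPKM in FcgRIIB- libraries (2.06, limma adjusted p = 0.0487). The Csf2rb2 call held only without FcgRIIB+ replicate 3 or FcgRIIB- replicate 4 among the 8 fits that left out 1 library (adjusted p up to 0.167). Il3ra, the alpha chain for IL-3, a growth factor of basophils, averaged 3.57 RPKM in FcgRIIB+ and 3.97 RPKM in FcgRIIB- libraries (-0.1, threshold not passed). Of 6 surface markers besides Cd200r3, 1 was called higher, and 2 with the block, beside 3.03% and 7.22% of all genes tested. The 1 was Cd63, a granule membrane protein used to mark degranulated basophils, at 129.6 ± 65.2 RPKM in FcgRIIB+ and 8.05 ± 7.8 RPKM in FcgRIIB- libraries (3.97, limma adjusted p = 0.00265), also in all 8 fits that left out 1 library. Of the 6 markers 4 were above 0, as were 38.8% of all genes tested. Enpp3 and Itga2 were below 0 (-0.27 and -0.05, threshold not passed). They averaged 1.03 and 1.58 RPKM in FcgRIIB+ and 1.84 and 1.84 RPKM in FcgRIIB- libraries.

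Limma called 0 of 7 transcription factors, with 1 higher at an unadjusted p under 0.05 and 1 with the block, Gata2. The shares higher over all genes tested were 3.03%, 7.48% and 7.22% in that order. Gata2, a factor of basophils, mast cells and progenitors, was at 2.5, 18.9, 6 and 9.38 RPKM in FcgRIIB+ replicates 1 to 4, and at 0.067, 1.69, 0.689 and 4.59 RPKM in FcgRIIB- replicates 1 to 4. It was higher in the FcgRIIB+ library of each pair, and the groups overlapped (log2 fold change 1.89, limma adjusted p = 0.138, and 0.000328 with the block). The most abundant, Bhlhe40 and Stat5b, averaged 154 and 13.6 RPKM in FcgRIIB+ and 143 and 21.6 RPKM in FcgRIIB- libraries. Mitf, a factor that mast cells need, was at 0.647 to 1.19 RPKM in FcgRIIB+ and 0.087 to 2.26 RPKM in FcgRIIB- libraries and was not tested.

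**Figure D4:**
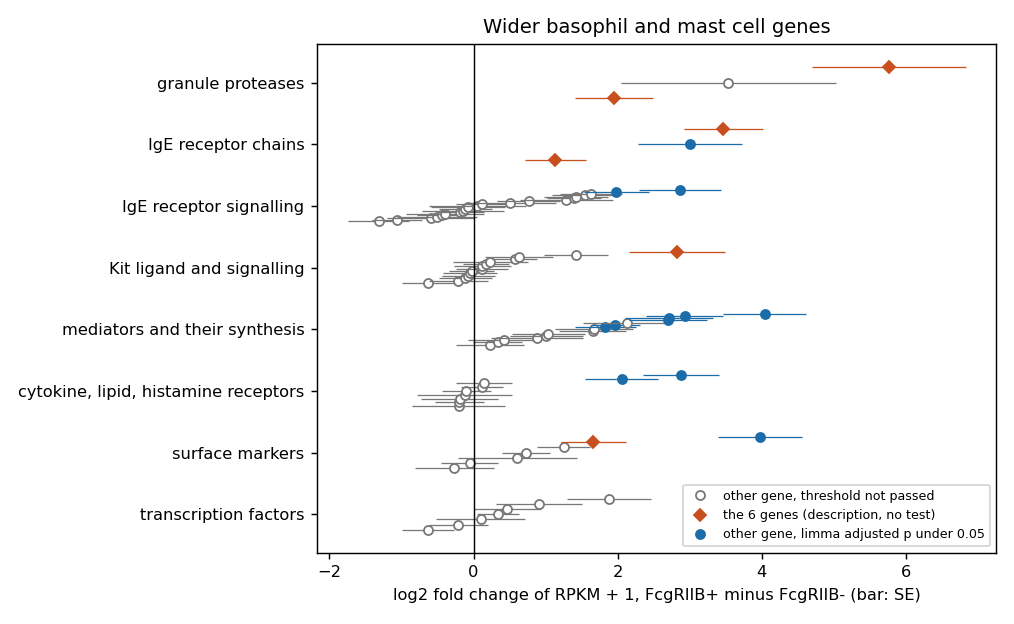
Log2 fold change of RPKM + 1, FcgRIIB+ minus FcgRIIB- (horizontal axis, bars are SE), of the genes tested in lists of basophil and mast cell function (rows). Diamonds are the 6 genes, filled circles other genes with a limma adjusted p under 0.05 and open circles the rest; all mediators lie above 0, with Alox5ap at 4.04 the farthest.

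Markers of other cells differed between the same libraries. Over all genes tested, limma called 3.03% higher and 0.268% lower, and 7.22% and 3.85% with the block. Limma called 14 of 16 dendritic cell markers higher (median 3.75), among them Naaa, Cadm1, Clec9a, a receptor for dead cells, and Cd209a, a lectin, with log2 fold changes of 4.16, 3.77, 4.9 and 4.5 (limma adjusted p up to 0.000651). The markers summed to 5773, 7104, 11423 and 12111 RPKM in FcgRIIB+ replicates 1 to 4 and 437, 994, 408 and 1154 RPKM in FcgRIIB- replicates 1 to 4. Of 17 monocyte and macrophage markers limma called 10 higher, and 16 with the block (median 2.62), with Hmox1, C1qa, Adgre1 and Cd68 first by p. The list summed to 3297 to 4435 RPKM in FcgRIIB+ and 1642 to 3413 RPKM in FcgRIIB- libraries. Most of the FcgRIIB- sums came from 1 gene, Ly6c2 (log2 fold change -0.51, threshold not passed). Ly6c2 was at 587 to 2422 RPKM in FcgRIIB+ and 1431 to 3210 RPKM in FcgRIIB- libraries, while 16 of the 17 markers were above 0. Of 6 eosinophil markers 2 were called higher, and 4 with the block. The 2 were Ear2, a ribonuclease (3.14, limma adjusted p = 0.00919; called in all 8 fits without 1 library), and Ccr3, the eotaxin receptor also found on basophils (2.29, limma adjusted p = 0.0325; not called without FcgRIIB+ replicate 1 or 2 or FcgRIIB- replicate 1, 3 or 4, adjusted p up to 0.138), and the list summed to 62.7 to 114 RPKM in FcgRIIB+ and 4.82 to 27.7 RPKM in FcgRIIB- libraries. Limma called 0 of 16 T cell markers, with 7 lower at an unadjusted p under 0.05 (all genes tested 4.67%) and 7 lower with the block (3.85%), and the list summed to 2167 to 4836 RPKM in FcgRIIB+ and 5706 to 9396 RPKM in FcgRIIB- libraries. Of these 4 lists no marker was at 0 in an FcgRIIB+ library, and Clec10a, a dendritic cell lectin, was at 0 in an FcgRIIB- library. The part of these cells in the levels of the 6 genes was not tested.

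Other lists had few calls. The shares over all genes tested, beside which their counts stand, were 3.03% higher and 0.268% lower. They were 7.48% and 4.67% at an unadjusted p under 0.05, and 7.22% and 3.85% with the block. Limma called 0 of 10 neutrophil markers (0 at an unadjusted p under 0.05, 1 lower with the block), and the list summed to 22.7 to 789.5 RPKM in FcgRIIB+ and 244 to 2218 RPKM in FcgRIIB- libraries, with Lcn2 at 0 in an FcgRIIB+ library. Mpo, myeloperoxidase of neutrophil precursors, was at 0.143, 0.678, 176 and 5.25 RPKM in FcgRIIB+ and at 0.022, 0.046, 1.33 and 4.5 RPKM in FcgRIIB- replicates 1 to 4, high in FcgRIIB+ replicate 3 alone. Limma called 0 of 8 erythroid markers (4 higher at an unadjusted p under 0.05 and 4 with the block), which summed to 2784 to 14585 RPKM in FcgRIIB+ and 2281 to 5224 RPKM in FcgRIIB- libraries. It called 0 of 4 megakaryocyte and platelet markers (0 at an unadjusted p under 0.05 and 0 with the block), which summed to 10.5 to 39.9 RPKM in FcgRIIB+ and 3.91 to 42.7 RPKM in FcgRIIB- libraries. It called 0 of 7 B cell markers (1 lower at an unadjusted p under 0.05 and 2 lower with the block), which summed to 73.1 to 203 RPKM in FcgRIIB+ and 98.3 to 457 RPKM in FcgRIIB- libraries. Of 7 plasma cell markers 1 was called higher, and 3 with the block. The 1 was Jchain, part of secreted IgM and IgA (5.6, limma adjusted p = 0.0487; not called without FcgRIIB+ replicate 1, 2 or 3 or FcgRIIB- replicate 1, 3 or 4, adjusted p up to 0.186), and the list summed to 436 to 1123 RPKM in FcgRIIB+ and 61.2 to 544 RPKM in FcgRIIB- libraries. Of 7 progenitor markers other than Kit 2 were called higher, Flt3 and Procr. Procr, a receptor on blood stem cells, had 2.43 (limma adjusted p = 0.00472, called in all 8 fits without 1 library). The list summed to 356 to 613 RPKM in FcgRIIB+ and 378 to 679.5 RPKM in FcgRIIB- libraries. Ly6a alone was at 165 to 532 RPKM in FcgRIIB+ and 362 to 670 RPKM in FcgRIIB- libraries. Of 8 innate lymphoid and NK cell markers other than Kit 1 was called lower, and 2 with the block. The 1 was Eomes (-1.24, limma adjusted p = 0.0318; not called without FcgRIIB+ replicate 1, 2 or 3 or FcgRIIB- replicate 1, 2, 3 or 4, adjusted p up to 0.103), and the list summed to 96.8 to 269.9 RPKM in FcgRIIB+ and 107 to 287 RPKM in FcgRIIB- libraries. The part of these cells was likewise not tested.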

How the data were processed

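Values are exon RPKM (reads per kilobase at a common depth), used as the authors deposited them, per the file headers. The submitters' processing notes list TopHat2, without a version, and mm9; the counting tool and its strand setting were not found in the labels. Every gene of the table reaches 3 RPM in at least 4 libraries. Entrez IDs restored 21 symbols that had turned into dates, and 13187 of 13204 IDs matched the RefSeq gene table. Reads were recovered from RPKM, exon length and the depth at which low values become whole. Of the low values checked, 99.8% to 100% were within 0.1 reads of a whole number. Counts of high values are approximate: those of Mcpt8 in FcgRIIB+ replicates 3 and 4 were 0.41 and 0.30 reads off. PCR copies cannot be told from molecules, so counts and floors cover counting error only.

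Limma 3.58.1 in R 4.3.3 (eBayes, trend) was run on log2(RPKM + 1) with group as its term, over the 11946 genes that reach 1 RPKM in at least 4 libraries. P-values are two-sided, adjusted by Benjamini-Hochberg over all of them, with a threshold of 0.05. This fit was tested on simulated data with independent libraries, so the simulation does not cover the pairing or the block fit. A second fit added the replicate as a block: the series design ties each number to 1 pool of spleens, and the libraries of a pair deviated from their group means together, with correlations of 0.70, 0.41, 0.56 and 0.68 in pairs 1 to 4. Each pool gave both libraries of a pair, so n = 4 is a number of pools. The fits that left out 1 library had group as their only term. They ignored the pairing, and calls with the block were not checked that way.

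The 6 genes and the lists were chosen with earlier results of these data known. Genes are named by a rule: the 6, the 5 most alike by each likeness, up to 4 called genes of a list by smallest p or its 2 most abundant, and relatives of Kit and Mcpt8; 1 gene that the rule names is not reported here. Others, such as Prss34, Hdc, Cyp11a1, Gata2, Lat, Fyn, Il3ra, Enpp3, Itga2, Kitl, Mitf, Mpo, Ly6c2, Ly6a and Cd3e, were named after their values were seen.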

Additional observations from a re-analysis of the deposited data

Results flagged for a closer look

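Kit in FcgRIIB- replicate 4 stood apart from the other FcgRIIB- libraries. Its gap to the nearest of them was 0.833 of the whole range of the group on the log2(RPKM + 1) scale, past the limit of 0.829 for 4 values. The level was 3.47 RPKM there and 0.476 to 0.776 RPKM in the other FcgRIIB- libraries. The first quartile of all genes was also highest in that library, at 4.27 RPKM, and its depth the lowest, at 3060000 reads; their part was not tested. Of 12 sets of 4 values checked this was 1, and chance flags about 1 in 20.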

How the results depend on the processing

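The fold changes of the 6 genes stayed positive under every alternative run. With 1 library left out at a time they ranged from 5.07 to 6.75 for Mcpt8, 3.00 to 3.91 for Fcer1a, 2.24 to 3.29 for Kit, 0.85 to 1.5 for Ms4a2, 1.49 to 2.31 for Cpa3 and 1.44 to 2.01 for Cd200r3. With a pseudocount of 0.1 that of Fcer1a was 4.75 and of Cd200r3 3.26, and with 5 they were 2.13 and 0.65. Kit was at 4.56 from replicates 1 and 2 and 1.09 from replicates 3 and 4.

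Over all genes 362 were called higher and 32 lower. The replicate block called 863 and 460, a common sum of RPKM 220 and 8, replicates 1 and 2 alone 875 and 142, and fits without 1 library 178 to 503 and 5 to 45. The lower count was 19 with median-ratio scaling, 60 with quantile normalization and 11 from replicates 3 and 4. Of the wider genes 12 were called higher and 0 lower, against 24 and 2 with the block, 6 higher with a common sum, 22 and 2 from replicates 1 and 2, and 4 to 14 higher without 1 library. The causes were not tested. Some FcgRIIB- levels of Mcpt8, Fcer1a and Cd200r3 rest on under 10 reads. These include 1, 0 and 4 reads in FcgRIIB- replicate 1, the deepest library of that group (17960000 reads).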
